A study of Mus musculus with 4 samples.

Results

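The Hox genes are homeobox transcription factor genes that mark position along the body axis. They were followed here in single cells from the discs that join the tail vertebrae of mice. Members were all rows of the gene table whose symbol is Hox with a cluster letter from a to d and a paralogue number from 1 to 13. This gave 39 of 32285 genes, 11 in HoxA, 10 in HoxB, 9 in HoxC and 9 in HoxD. Rows for antisense and host transcripts of the clusters were not members. The series compared discs punctured with a 30G needle with unpunctured discs, in 2 rounds. All mice were wildtype C57BL/6 females aged 12 weeks, and tissue was collected on day 7 post injury. Injured discs came from tail levels CC5/6 to CC9/10, where CC is a coccygeal vertebra. Control discs came from the more distal levels CC12/13 to CC16/17 of the same animals, and the labels call them an internal control. Discs of 6 mice, 30 in a group, were pooled into 1 suspension, which was frozen, thawed and sorted for viable cells. Injury and tail level therefore changed together, and their parts in any difference cannot be told apart. Each group had 2 libraries, 1 per round. The labels do not say whether the 6 mice and 30 discs were pooled in each round or over both, so whether the spread between libraries, which is all that the p-values measure, covers different animals is not known.

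Hox genes lie in 4 clusters, and the order of genes along a cluster follows the order in which they come on from head to tail in the embryo. Low paralogue numbers act in the hindbrain and neck, middle numbers in the trunk and high numbers in the lumbar, sacral and tail regions. The genes of paralogue number 13 come on last and are known for ending the growth of the tail and for patterning the limb tip and the urogenital tract. Adult connective tissue cells often keep part of this positional code. The annulus of a disc, whose inner part resembles cartilage and whose outer part is rich in fibroblasts, comes from the sclerotome of the somites, and the core, the nucleus pulposus, comes from the notochord. Cells of the blood system reach the disc from elsewhere.

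A barcode counted as a cell when 250 or more genes were detected in it. There were 378 and 856 cells in control rounds 1 and 2 and 778 and 1834 in injured rounds 1 and 2, with 1064193, 2161114, 6727076 and 10558620 UMIs (unique molecular identifiers, each 1 captured transcript molecule). Of the 378 cells of control round 1, 159 had a barcode that also occurred in injured round 1 with at least 0.3 times the UMIs, 104 of them with 29.2 to 44.8 times more UMIs there. Without these 159 cells the control round 1 library held 219 cells. Values of control round 1 below include them. Without them its levels of the 24 members tested in disc cells were 0.809 to 1.08 times those given. The inner class held 92 of the 159. The defining markers of cartilage were high in every library, with all 18 inner annulus markers detected and a summed level of 12476 to 18905 CPM. Of 11 nucleus pulposus markers 8 or 9 were detected, with a summed level of 1917 and 1462 UMIs per 1000000 in the control libraries and 775 and 484 in the injured ones. Cell classes were rebuilt from clusters made without any Hox gene among the variable genes. They comprised 1984 inner annulus or cartilage-like cells, 519 outer annulus or fibroblast-like cells and 106 nucleus pulposus-like cells, together called disc cells, and 134 macrophage or monocyte-like, 66 endothelial-like and 39 mural-like cells. Of the other cells, which stayed unnamed, 103, 468, 163 and 264 were in the 4 libraries. They enter the values over all cells and not those of disc cells. Their clusters included one led by Try5 and Ctrb1, markers of pancreatic acinar cells, and another led by Igkc and Jchain, of B or plasma cells. Pancreatic acinar markers summed to 1864 and 1254 CPM in the control libraries and 26.8 and 3.50 CPM in the injured ones. Those of B or plasma cells summed to 1228 and 724 against 106 and 3.41 CPM.

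The members that the later comparison turns on are those of paralogue number 13, at the tail end of each cluster. Their homeoboxes, the 180 bases that encode the DNA-binding homeodomain, are shown from the GENCODE transcripts of mm10 to let the 4 genes be compared. The 18 bases in capitals, at positions 142 to 159 from the start of the homeobox, encode a stretch of the third helix, which lies in the major groove of DNA.
Hoxa13: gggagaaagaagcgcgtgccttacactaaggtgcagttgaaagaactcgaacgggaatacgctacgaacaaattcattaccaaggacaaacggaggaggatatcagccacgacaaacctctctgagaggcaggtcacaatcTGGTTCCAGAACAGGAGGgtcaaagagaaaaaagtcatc
Hoxb13: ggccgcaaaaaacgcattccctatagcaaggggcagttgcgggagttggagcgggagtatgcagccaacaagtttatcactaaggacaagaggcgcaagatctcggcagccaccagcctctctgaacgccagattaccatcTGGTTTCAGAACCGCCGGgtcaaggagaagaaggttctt
Hoxc13: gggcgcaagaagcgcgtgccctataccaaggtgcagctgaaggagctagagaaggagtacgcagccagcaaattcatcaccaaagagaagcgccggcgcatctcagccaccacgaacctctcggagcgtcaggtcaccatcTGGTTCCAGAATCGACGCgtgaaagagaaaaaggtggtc
Hoxd13: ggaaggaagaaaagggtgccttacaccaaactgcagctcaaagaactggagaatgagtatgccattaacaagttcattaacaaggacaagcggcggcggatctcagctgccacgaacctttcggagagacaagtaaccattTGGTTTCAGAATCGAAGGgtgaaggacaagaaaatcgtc
Between pairs of these 4 homeoboxes, 67.2% of bases (Hoxb13 and Hoxd13) to 77.2% (Hoxa13 and Hoxc13) were identical. The genes lie at chr6:52257694-52260880 on the minus strand (Hoxa13), chr11:96194316-96197447 on the plus strand (Hoxb13), chr15:102921103-102928814 on the plus strand (Hoxc13) and chr2:74668310-74671599 on the plus strand (Hoxd13). Near-identical stretches at the 3′ end, where this chemistry reads, can send reads to the wrong gene. Of 741 pairs of members, 5 shared a 31-base word in the last 500 bases of their transcripts, and none of these pairs held a gene of paralogue number 13. Exons of 9 members overlapped exons of another gene on the same strand. The overlap was large for Hoxd3, with 62.3% of its exon bases shared, and for Hoxd4, with 52.3%, so their counts are uncertain.

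Over all cells, 38 of the 39 members had at least 1 UMI. Hoxd12 had none in 20511003 UMIs. The members had 7655 UMIs in all, and 2178 of 3846 cells (56.6%) held at least 1. Counts were uneven: 6 members had at least 500 UMIs, 24 had at least 50 and 14 had 1 to 49, and the 8 most counted members took 59.3% of all Hox UMIs. This chemistry counts 1 tag per molecule near the 3′ end, so the levels below are not scaled by gene length. They are UMIs per 1000000 UMIs (CPM) summed over the disc cells of a library, in the order control rounds 1 and 2, injured rounds 1 and 2.

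Among the 9 HoxC genes, those of the tail end led. Hoxc10, a lumbar and hindlimb-level gene and the most counted member, had levels of 46.6, 55.7, 48.8 and 38.4 CPM. Hoxc13, known for hair and nail formation as well as its tail-end place, had 46.6, 43.0, 36.5 and 26.1 CPM. Hoxc9, a thoracic-level gene, had 29.6, 32.0, 30.95 and 21.8 CPM. The control libraries lay above both injured ones for Hoxc13, while those of Hoxc10 and Hoxc9 overlapped. Hoxc12 had 15.9, 13.2, 17.9 and 9.08 CPM, and Hoxc11 had 25.4, 7.72, 9.83 and 11.7 CPM, with control round 1 standing apart. Hoxc6 and Hoxc8, genes of the trunk, had 8.47, 9.93, 8.52 and 5.55 CPM and 7.41, 15.4, 8.84 and 2.93 CPM. Neither gave control and injured values that were apart, since injured round 1 fell between the controls. The other members of HoxC, Hoxc4 and Hoxc5, had 32 and 11 UMIs over all cells.

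In HoxA, levels were higher at paralogue number 7 than at number 6 and of like size from there to number 11. Hoxa10, known for lumbar patterning, had 22.2, 33.7, 34.6 and 19.9 CPM. Hoxa7 had 16.9, 33.1, 24.6 and 20.8 CPM, and Hoxa11, known for the forearm, hindlimb and sacrum, had 16.9, 27.6, 21.9 and 21.3 CPM. Groups overlapped for these 3 genes. Hoxa9 had 21.2, 21.5, 18.7 and 16.5 CPM, a narrow range in which both injured libraries were below both controls. Hoxa13, known for limb tip and hindgut formation, had 15.9, 32.6, 13.1 and 6.96 CPM, so both control libraries were above both injured ones. Of the head-end members, Hoxa5 had 7.41, 6.62, 5.08 and 6.15 CPM and Hoxa3, known for neck and thymus formation, had 8.47, 6.62, 2.29 and 3.23 CPM, also without overlap. Hoxa2, Hoxa4 and Hoxa6 had 16 to 32 UMIs each over all cells.

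HoxB showed a peak at paralogue numbers 7 and 9. Hoxb7 had 22.2, 39.2, 31.9 and 32.2 CPM, and Hoxb9 had 34.9, 30.3, 29.5 and 23.8 CPM. Hoxb13, which stands apart from the rest of its cluster at the tail end and is known for restraining tail growth, had 6.35, 7.17, 2.13 and 1.82 CPM. Both control values of Hoxb13 and of Hoxb9 were above both injured ones, Hoxb13 from only 52 UMIs over all cells. Hoxb2 was the exception at the head end of this cluster, with 7.41, 12.7, 12.1 and 14.1 CPM. Hoxb3 had 6.35, 9.38, 3.60 and 3.73 CPM and did not overlap between groups, whereas Hoxb4 had 11.6, 4.41, 11.3 and 3.13 CPM and followed the round. Hoxb6 and Hoxb8 had 8.47, 12.1, 4.42 and 8.98 CPM and 8.47, 9.93, 7.53 and 5.45 CPM, and the groups were apart for Hoxb8 alone of these 2. Without the shared barcodes control round 1 had 6.85 CPM of Hoxb8, below injured round 1, and 9.13 CPM of Hoxb6, above both injured libraries, so the order of the 2 genes in this respect turned. Hoxb5 and Hoxb1 had 47 and 3 UMIs over all cells.

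HoxD was the least detected cluster and had few UMIs at its tail end. Hoxd8 had 23.3, 13.8, 19.7 and 14.5 CPM and Hoxd9 had 14.8, 12.1, 10.2 and 6.96 CPM, the latter without overlap between groups. Past these, counts over all cells dropped to 27 UMIs for Hoxd10, 34 for Hoxd11, 0 for Hoxd12 and 5 for Hoxd13, a gene known for digit and genital formation. Hoxc10 had 852 UMIs, Hoxa11 414, Hoxc12 242 and Hoxc13 624, so the genes of the same number in HoxA and HoxC were counted far more often. HoxB has no gene between numbers 9 and 13, and Hoxb13 with 52 UMIs was also far below Hoxb9 with 531. Hoxd1, Hoxd3 and Hoxd4 had 1, 3 and 9 UMIs. HoxD took 6.62% to 9.67% of Hox UMIs in disc cells of the 4 libraries, HoxA 25.5% to 33.0%, HoxB 24.1% to 28.4% and HoxC 35.0% to 40.8%.

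**Figure D1:**
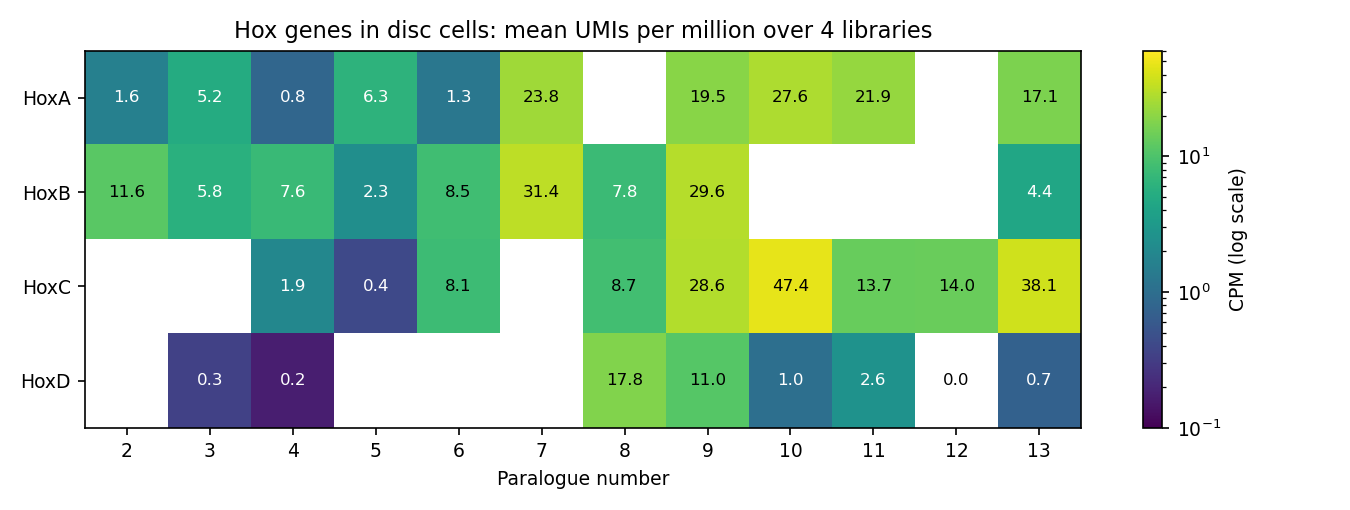
Mean level of the Hox genes of paralogue numbers 2 to 13 in disc cells, in CPM over the 4 libraries (number in each square, colour on a log scale), by cluster (rows) and paralogue number (columns), with white squares where mouse has no gene or none was counted. HoxC has its highest squares at numbers 10 and 13 (47.4 and 38.1 CPM), while HoxD is at 2.60 CPM or below from number 10 on.

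Members from several clusters were found in the same cells. In disc cells with at least 5000 UMIs, the median number of different Hox genes with a UMI was 2.5 and 3 in the control libraries (64 and 141 cells) and 4 and 2 in the injured ones (446 and 819 cells). The highest number in a cell was 18, in injured round 1. UMIs from 3 or all 4 clusters were present in 35.9% and 38.3% of these control cells and in 48.7% and 28.8% of the injured ones. Median UMIs of these cells were 7754.5, 7213, 10392 and 8143, and the library with the deepest cells had the most Hox genes per cell.

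Hox levels varied widely between cell classes. Summed over the 4 libraries, Hox genes took 3.95 of 10000 UMIs in inner annulus or cartilage-like cells (95% exact counting interval 3.85 to 4.06, 5659 Hox UMIs) and 3.72 in outer annulus or fibroblast-like cells (3.54 to 3.91, 1591 Hox UMIs). HoxC took 35.6% and 40.6% of Hox UMIs in them, and in the outer class of control round 1 alone 56.5%, from 131 Hox UMIs. Paralogue numbers 11 to 13 took 23.6% and 27.7%. The order of the 2 levels did not hold in each library, since the outer class was the higher one in both control libraries and the lower one in both injured libraries (values below), and injured round 2 gave 1082 of the 1591 outer Hox UMIs. Each of the 10 clusters of these 2 classes had members of HoxA to HoxD.

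In endothelial-like cells the set of members was different. Their level was 2.50 of 10000 UMIs (1.93 to 3.20), from 64 Hox UMIs in 66 cells. None of the 64 came from HoxC (exact interval up to 5.60%) and none from paralogue numbers 11 to 13, while 35 came from numbers 5 to 8 and 21 from numbers 1 to 4. Their most counted members were Hoxb4 with 10 UMIs, Hoxb7 with 9, Hoxa7 with 7 and Hoxb8 and Hoxb9 with 6 each. The Hox UMIs came from all libraries, 13 and 3 in the controls and 41 and 7 in the injured ones. Mural-like cells, the contractile cells around vessels, had 4.75 of 10000 UMIs (3.77 to 5.90) from 81 Hox UMIs in 39 cells. Of these 33 came from HoxC, none from HoxD (interval up to 4.45%) and 12 from numbers 11 to 13. Hoxb4 led here with 11 UMIs, followed by Hoxc10 with 9. All but 4 of the mural-like cells came from injured libraries.

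Nucleus pulposus-like cells had few Hox UMIs and none from HoxC. Their level was 1.51 of 10000 UMIs (0.993 to 2.19), with 27 Hox UMIs in 106 cells, of which 100 came from control libraries. HoxA gave 15 of the 27, HoxB 4 and HoxD 8, and the exact interval for the HoxC share reached up to 12.8%. Hoxa5 and Hoxa7 had 5 UMIs each and Hoxd8 and Hoxd9 3 each. Mitochondrial UMIs made up a mean of 43.9% in these cells, against 5.09% in inner and 4.96% in outer annulus-like cells. An unnamed cluster led by Ccl11 and Dpep1, with 267 of its 316 cells in control round 2, also had no HoxC among 20 Hox UMIs (interval up to 16.8%), and Hoxa5 and Hoxb2 gave 6 UMIs each. Its median depth was 385 UMIs per cell, against 5669.5 in inner annulus-like cells. All of its cells in control round 1 had shared barcodes, as had those of the unnamed clusters led by Krt18, Igkc and Try5. Whether it is a cell type of the disc is not known.

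Some clusters had almost no Hox UMIs. Macrophage or monocyte-like cells had 13 Hox UMIs in 506516, or 0.257 of 10000 (0.137 to 0.439), at a median depth of 3299 UMIs per cell. All 13 were in injured round 2, where 8 of 92 cells held them. No Hox UMI was found in 60503 UMIs of an unnamed cluster led by Krt18, which allows a level of up to 0.496 of 10000, or in 41986 UMIs of an unnamed cluster led by Igkc, which allows up to 0.715. Barcodes under 100 UMIs, which hold free RNA, had 0.847 in control round 2, 1.24 in injured round 1 and 0.807 in injured round 2. Levels in cells of these libraries were 5.42, 3.27 and 4.07 times as high. HoxC made up 24.7% to 29.8% of Hox UMIs in free RNA, against 0 of 27 and 0 of 20 in the nucleus pulposus-like and Ccl11 clusters. With every cell thinned to 1000 UMIs, 28.8% to 37.5% of disc cells in the 4 libraries held a Hox UMI, against 3 of 80 (3.75%) and 0 of 31 macrophage-like cells in injured rounds 2 and 1. Unthinned shares of disc cells were 53.8% and 69.8% in the controls and 88.0% and 76.2% in the injured libraries, so their order followed depth.

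**Figure D2:**
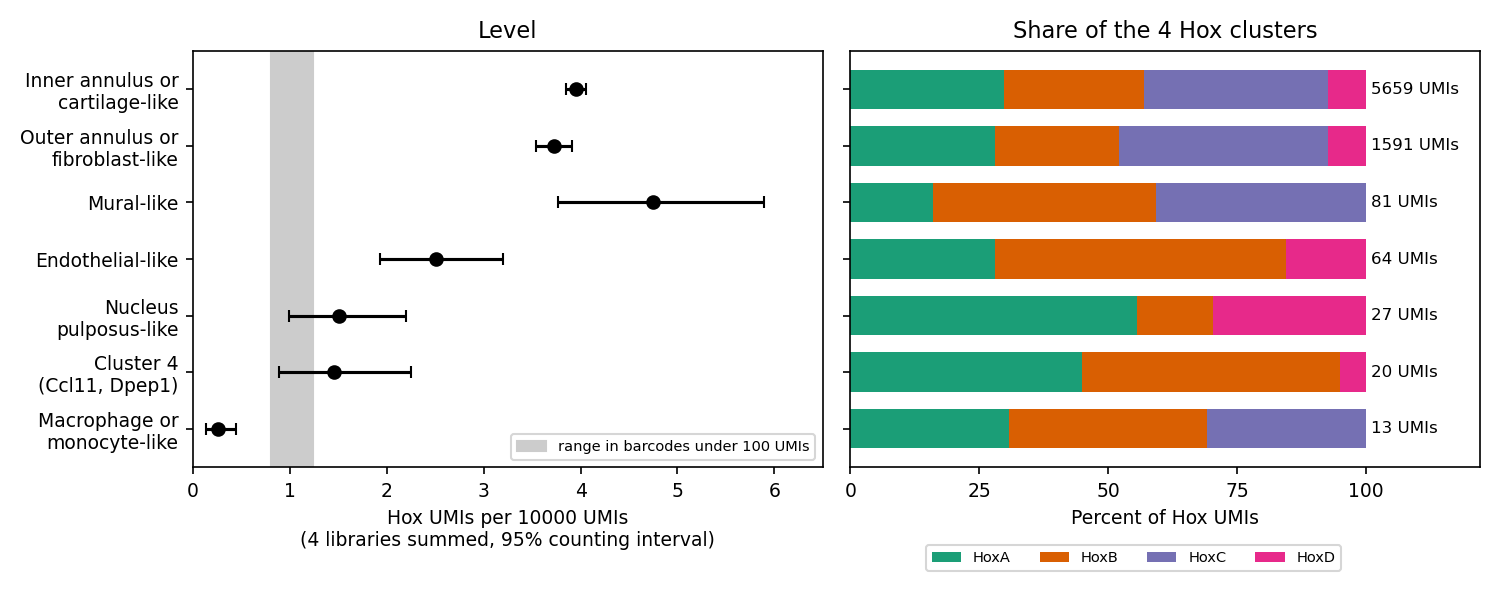
Left, Hox UMIs per 10000 UMIs by cell class with the 4 libraries summed (points, bars are 95% exact counting intervals, grey band is the range in barcodes under 100 UMIs). Right, percent of Hox UMIs from each cluster, with the number of Hox UMIs; HoxC takes 35.6% and 40.6% in the annulus-like classes and 0 in the endothelial-like, nucleus pulposus-like and Ccl11 clusters.

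The summed Hox level of disc cells was lower in both injured libraries than in both controls. Over all cells it was 4.32 and 4.59 of 10000 UMIs in the control libraries and 4.06 and 3.29 in the injured ones. In disc cells it was 4.49 and 5.09 against 4.24 and 3.37, and 4.51 in control round 1 without the shared barcodes. The mean difference in disc cells was -0.98 of 10000, with SDs of 0.42 (control) and 0.62 (injured, n = 2 each). It was -0.54 without injured round 2 and -1.42 without injured round 1, so its size leaned on injured round 2. No p is given for a sum over members. In the inner class the groups overlapped, with 4.06 (4.05 without the shared barcodes) and 5.14 against 4.30 and 3.41. In the outer class, where no cell of control round 1 had a shared barcode, they did not overlap, with 6.95 and 5.89 against 3.49 and 3.29. Disc cells of the control libraries were also shallower, with median UMIs of 2682.5 and 4004 against 9112 and 5636, and had mean mitochondrial shares of 6.39% and 16.1% against 3.74% and 5.26%. The part of either in the level was not tested. In bulk sums of a class, fewer cells with the RNA and less RNA per cell cannot be told apart.

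Within the Hox UMIs of disc cells, the groups did not overlap at 2 of 13 paralogue numbers, 3 and 13, both with a lower share in the injured libraries. Among the levels of single genes in these cells, 20.2% were lower and 16.8% higher in both injured libraries than in both controls. A level of a single gene is another measure than a share of a sum, so this gives a rough scale only. The share of number 13 is given as a measurement of the tail-end genes, with no test. In disc cells paralogue number 13 took 15.8% (exact interval 12.5% to 19.6%) and 16.4% (14.04% to 18.9%) of Hox UMIs in the control libraries. It took 12.2% (10.99% to 13.6%) and 10.4% (9.38% to 11.5%) in the injured libraries. The mean share was 16.1% ± 0.41 in control and 11.3% ± 1.30 in injured discs (SD, n = 2). Without the shared barcodes control round 1 gave 16.2%. Paralogue number 3 took 3.54% and 3.15% against 1.47% and 2.07%. The remaining 11 numbers overlapped. Paralogue number 9, the largest, took 22.4% and 18.9% against 21.0% and 20.5%, and number 10 took 15.3% and 17.9% against 19.8% and 17.8%.

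As levels, paralogue number 13 had 70.9 and 83.3 CPM in control and 51.9 and 35.0 CPM in injured disc cells. Of the 13 paralogue numbers, 7 were lower in level in both injured libraries than in both controls and none was higher, where 20.2% of single genes were lower and 16.8% higher. Single genes give a rough scale only, since each paralogue number is a sum over members. These sums share the lower summed Hox level of the injured libraries. In the outer class paralogue number 13 took 22.9% and 19.3% of Hox UMIs in control libraries, from 131 and 249 Hox UMIs, and 11.6% and 11.4% in injured ones, from 129 and 1082. Its level was 159 and 114 CPM against 40.6 and 37.4 CPM. Number 7 had a higher share in this class in both injured libraries, with 9.92% and 14.5% against 17.1% and 15.4%. The other 11 numbers overlapped in share. These values rest on the clusters. When cells were clustered again without the shared barcodes, the outer class kept 6 and 4 control cells, with 15 and 9 Hox UMIs, too few to give its control shares again. Among inner annulus-like cells the shares were 13.1% (13.4% without the shared barcodes) and 15.6% against 12.3% and 9.92%, closer together and still without overlap. In free RNA the share was 9.61% in control round 2 and 3.66% and 6.08% in injured rounds 1 and 2, below that of the cells in each library and in the same order of groups.

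The classes were filled by different clusters in the 2 groups, so the shares were also set side by side within clusters. In the outer class, the cluster led by Myoc and Angptl7 held 82.4% and 92.7% of the cells in the control libraries, 54.5% and 19.1% in the injured ones, and the cluster led by Aspn and Cthrc1 held 62.0% of the cells of injured round 2. Within the Myoc and Angptl7 cluster, the Hox level was 7.31 and 6.07 of 10000 UMIs in the controls and 3.13 and 4.23 in the injured libraries. Paralogue number 13 took 19.0% and 19.6% of Hox UMIs there against 9.30% and 14.6%, from 116, 240, 43 and 219 Hox UMIs. In the inner class the cluster led by Grem1 and Sfrp5 held 80.6% of the cells of control round 2 and 5.08% of those of injured round 2, and had number 13 at 16.2% and 8.45% in them. Over the annulus-like clusters there were 8 pairs of a control and an injured library of the same round with at least 20 Hox UMIs in each, a minimum chosen after the values were seen. The share of number 13 was lower in the injured library in 8 of the 8 pairs and the Hox level in 7 of 8. Without the shared barcodes the round 1 pair of the cluster led by Cxcl2 and Nos2, the one with a higher level, had 12 control Hox UMIs in place of 29 and fell under the minimum, which left 7 pairs, with share and level lower in the injured library in 7 of 7. With no minimum there were 18 pairs with a Hox UMI in both libraries, and the share was lower in the injured library in 13 and higher in 5. In those 5 the control library had 1 to 12 Hox UMIs and none from number 13, as in the cluster led by M1ap and Fmod in round 1, with 0% of 12 against 18.0% of 267. Without the shared barcodes there were 16 such pairs, 13 lower and 3 higher, and that pair had 9 control Hox UMIs. All these pairs come from the same 4 libraries and are not independent.

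**Figure D3:**
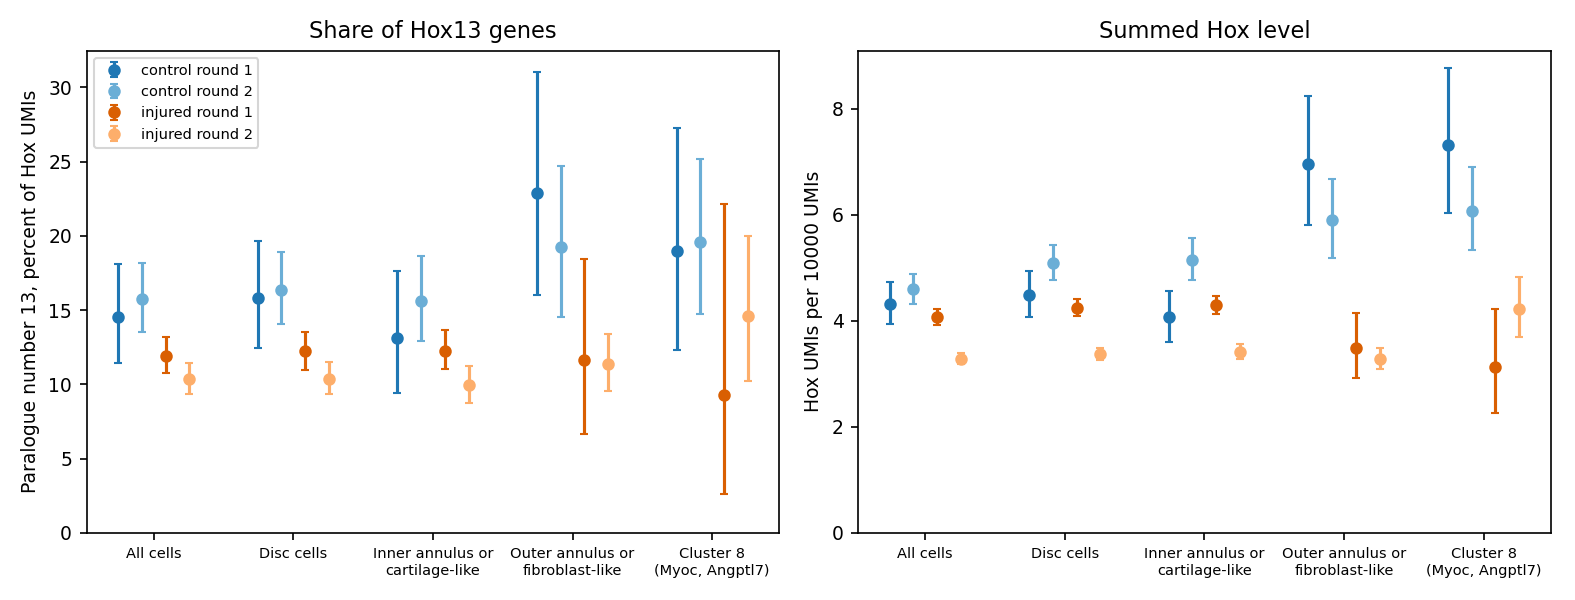
Percent of Hox UMIs from paralogue number 13 (left) and Hox UMIs per 10000 UMIs (right) in each library (points, bars are 95% exact counting intervals), by cell set. In disc cells the control libraries sit at 15.8% and 16.4% and the injured ones at 12.2% and 10.4%, and in the outer class at 22.9% and 19.3% against 11.6% and 11.4%.

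No single Hox gene passed the test between injured and control discs. UMI sums per library were compared with edgeR's quasi-likelihood test over all genes, and a gene was called at a Benjamini-Hochberg adjusted p under 0.05. The fits tested 25 members over all cells, 24 for disc cells, 25 for the inner class and 7 for the outer class, and 0 were called in each. The background was as low, since 0.117%, 0.0178%, 0% and 1.78% of all tested genes were called. With round as a block 6.14%, 4.4%, 6.12% and 4.6% of genes were called and still 0 members. DESeq2 also called 0 members, against 0.789%, 0.595%, 0.515% and 0.481% of genes. At an unadjusted edgeR p under 0.05 there were 1, 2, 3 and 1 members, each lower in injured discs, against a background of 7.91%, 7.64%, 7.49% and 13.2% of genes in both directions and 4.25%, 3.68%, 3.69% and 6.24% in the lower one. With the block they were 4, 3, 5 and 2, against 21.1%, 20.1%, 21.2% and 19% of genes. By DESeq2, which tested 38, 37, 37 and 34 members, they were 0, 0, 0 and 1, against 4.23%, 3.88%, 3.34% and 3.47% of genes.

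Signs are given for the tested members as a description only. The filter on low counts needs a minimum level in 2 libraries, so a member could pass through the control libraries alone. This was so for 2 of 25 members over all cells, 1 of 24 in disc cells, 3 of 25 in the inner class and 2 of 7 in the outer class, and none passed through the injured libraries alone. Over all cells 19 of 25 had a log2 fold change below 0, against 51% of all genes. In disc cells 21 of 24 tested members had a log2 fold change below 0, against 51.1% of all genes. Their median was -0.24, against -0.02 over all genes. The lean was not particular to Hox genes. Of the lists read below, 9 of 10 upstream regulators and 18 of 22 Polycomb genes were below 0 there too. So were 7 of 9 cofactors and 7 of 10 Trithorax group and demethylase genes. Of other positional genes and of noncoding rows, 4 of 11 and 3 of 6 were below 0. In 10 of the 24 Hox members both injured libraries were below both controls, against 20.2% of all genes, and in 0 both were above, against 16.8%. Without the shared barcodes it was 12 of the 24, now with Hoxb6, Hoxc6 and Hoxc10 and no longer with Hoxb8. In the inner class 15 of 25 members were below 0, against 53.1% of genes, with 11 lower without overlap against 23.9% of genes and 1, Hoxb2, higher without overlap against 14% of genes. In the outer class 7 of 7 were below 0, against 48.8% of genes, with 5 lower without overlap against 18.2% of genes. Of the 7, Hoxa9 and Hoxc9 passed through the controls alone. With no filter, 24 of 38 members were below 0 over all cells, 23 of 37 in disc cells, 18 of 37 in the inner class and 26 of 34 in the outer class, many of them from a few UMIs. Their medians were -0.15, -0.12, 0.03 and -0.77, against 0.16, 0.20, 0.19 and 0.34 over all genes without the filter.

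Among the 24 members tested, those with the largest differences in disc cells were at both ends of the numbering. Hoxb13 passed the filter through the control libraries alone both here and among inner annulus-like cells, where Hoxa3 and Hoxb5 did so too, so the size of these differences is a description. Hoxb13 had a mean of 6.76 ± 0.58 CPM in control and 1.97 ± 0.22 CPM in injured ones (SD, n = 2). On the log2 scale the difference was -1.72 ± 0.62 (SE; edgeR adjusted p 0.583), and -1.65 ± 0.61 in the inner class. Hoxa13 had means of 24.2 ± 11.8 and 10.0 ± 4.34 CPM. The log2 difference was -1.25 ± 0.51 (edgeR adjusted p 0.644), and -0.62 when control round 2 was left out. The value for Hoxa13 thus leaned on control round 2. Hoxa3 had a log2 fold change of -1.35 ± 0.61 (edgeR adjusted p 0.696) and Hoxb3 of -1.05 ± 0.56 (edgeR adjusted p 0.734). With round as a block the edgeR adjusted p-values in disc cells were 0.117 for Hoxb13 and 0.104 for Hoxa13, and none of the 4 genes was called. Without the shared barcodes the log2 fold changes were -1.77 for Hoxb13, -1.23 for Hoxa13, -1.31 for Hoxa3 and -1.10 for Hoxb3. Members under the filter can lie further apart on a few UMIs, as Hoxa2 did with 2.12 and 3.31 against 0.491 and 0.605 CPM.

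Hoxc13 had unlike values in the outer and inner classes, though the test of that difference did not pass (below). In the outer class it had 138 and 71.0 CPM in the control libraries and 29.8 and 30.97 CPM in the injured ones. Its log2 fold change there was -1.75 ± 0.49, with an edgeR adjusted p of 0.0917, or 0.0511 with round as a block. Among inner annulus-like cells it had 25.9 and 37.5 CPM against 37.0 and 23.7 CPM, a log2 fold change of 0.05 ± 0.41. Hoxc10 and Hoxa9 in the outer class had 111 and 49.7 against 43.3 and 34.6 CPM and 47.7 and 30.8 against 18.9 and 16.7 CPM, with edgeR adjusted p-values of 0.404 and 0.417. The log2 fold change of Hoxc10 there was -1.05, and -0.41 without control round 1 and -1.65 without control round 2.

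Whether the outer class differed from the inner one in its response was tested as an interaction in edgeR, a fit chosen after the data were seen. Of 9161 genes 0.218% were called, and of 20 members tested 0 were called. The interaction for Hoxc13 was -1.64 ± 0.54 on the log2 scale (unadjusted p 0.0100, edgeR adjusted p 0.383), the only member under an unadjusted 0.05, against 7.77% of all genes. The interaction was below 0 for 18 of the 20 members and for 47.8% of all genes, with a median of -0.73 for the members.

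**Figure D4:**
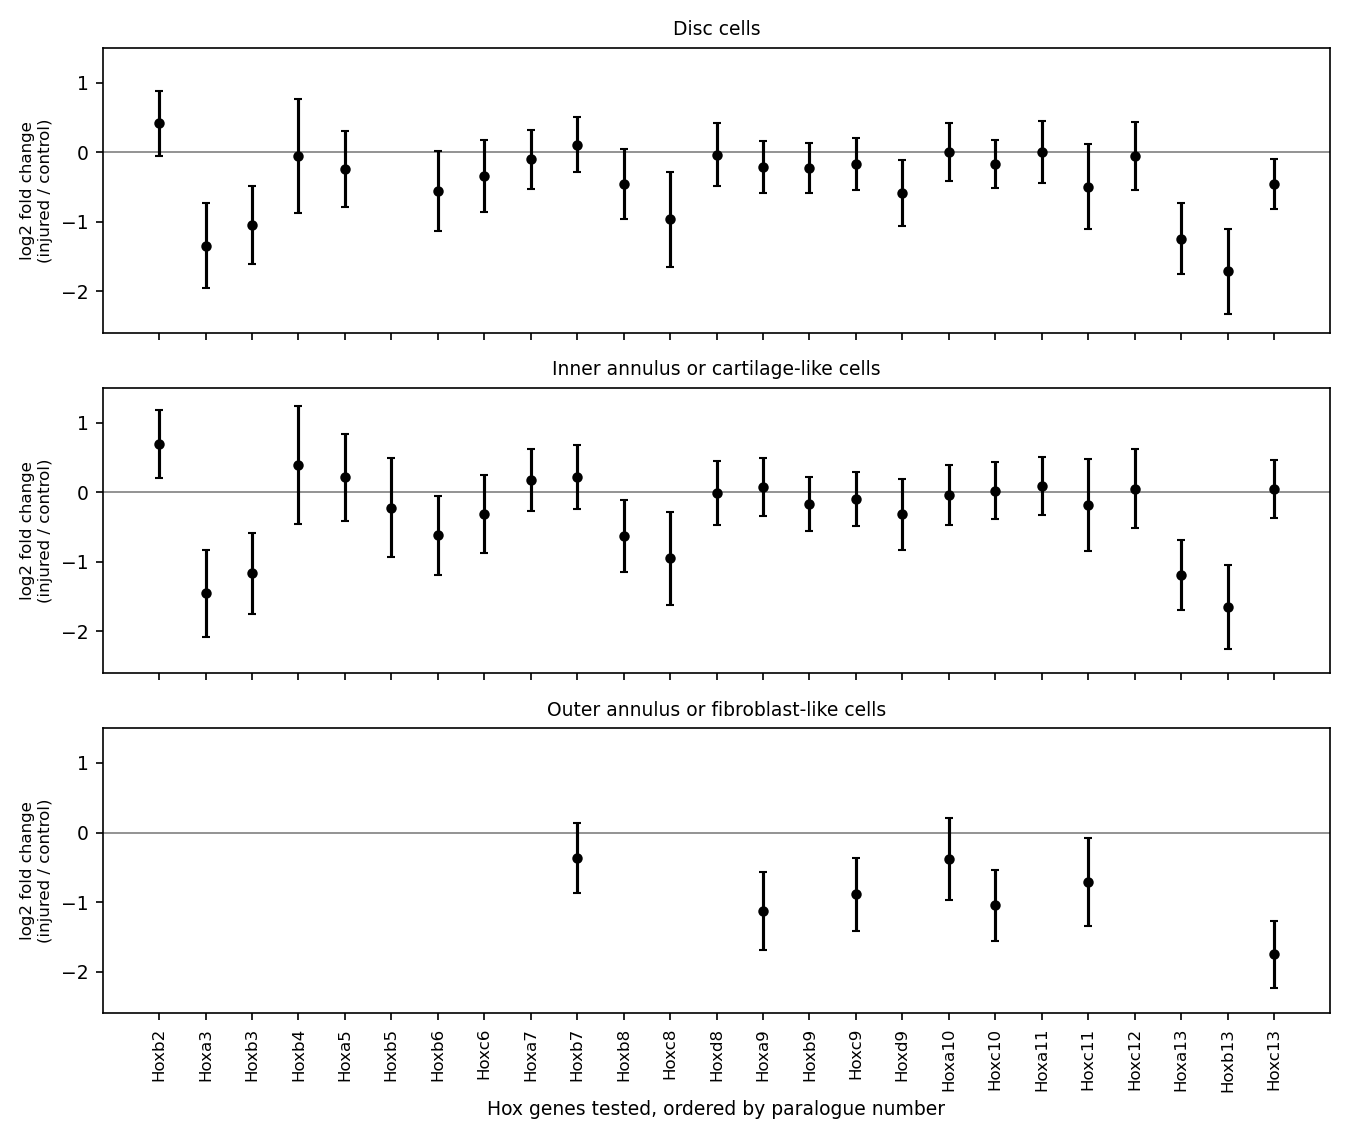
Log2 fold change of injured over control (edgeR, points, bars are 1 SE) for each Hox gene tested, ordered by paralogue number, in disc cells (24 genes), inner (25) and outer (7) annulus-like cells. Hoxb13 lies at -1.72 in disc cells and Hoxc13 at -1.75 in outer cells, and none passed the adjusted threshold. Points of genes that passed the filter on low counts through the controls alone (Hoxb13 in disc and inner cells, Hoxa3 and Hoxb5 in inner cells, Hoxa9 and Hoxc9 in outer cells) had to lie low.

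Genes known to act with or on Hox genes were read from lists, and in the fits without a block 0 members of any list were called in any of the 4 cell sets. The Hox cofactors Pbx, Meis and Pknox bind DNA together with Hox proteins. All 9 were tested in disc cells, 7 with a log2 fold change below 0 and a median of -0.41. Meis1 had 3.17 and 13.8 CPM in control against 3.60 and 4.64 CPM in injured disc cells (log2 fold change -1.04 ± 0.70, edgeR adjusted p 0.811), and Meis3 had 5.29 and 4.96 against 9.17 and 10.1 CPM (0.98 ± 0.52, edgeR adjusted p 0.735). Of 20 upstream regulators of Hox genes 10 were tested in disc cells, 9 of them below 0. Rara, a retinoic acid receptor, had 21.6 and 39.0 against 12.6 and 12.1 CPM in the inner class (log2 fold change -1.19 ± 0.43, edgeR adjusted p 0.567). Rara was called there with round as a block (edgeR adjusted p 0.0450), as 1 of 8 upstream regulators tested, against 6.12% of all genes.

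The chromatin regulators that keep Hox genes off or on showed no call without the block. Of 25 Polycomb group genes, which hold Hox clusters silent, 22 were tested in disc cells and 18 were below 0, with a median of -0.45. Pcgf5 was the only one called with round as a block, in the outer class, with 53.03 and 109 against 35.2 and 19.4 CPM (log2 fold change -1.87 ± 0.47, edgeR adjusted p 0.0476). This was 1 of 12 Polycomb genes tested there, against 4.6% of all genes called with the block. Of 10 Trithorax group and demethylase genes, which keep Hox genes active, all 10 were tested and 7 were below 0 in disc cells. Kdm6b had 1034 and 254 against 586 and 191 CPM, a difference between rounds larger than between groups, and Kmt2a had 114 and 75.6 against 90.1 and 30.3 CPM.

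Of 30 other positional homeobox and T-box genes, 11 were tested in disc cells, with a log2 fold change above 0 in 7 and below 0 in 4 and a median of 0.48. Prrx1 and Prrx2, paired-type homeobox genes of mesenchyme, were called only with round as a block. Of this list the block called 1 of 12 genes tested over all cells, against 6.14% of all genes. It called 2 of 10 in the inner class, against 6.12%, and 1 of 6 in the outer class, against 4.6%. In the inner class Prrx1 had 4.32 and 7.80 against 21.8 and 14.2 CPM (log2 fold change 1.54 ± 0.46, edgeR adjusted p 0.0498) and Prrx2 21.6 and 48.4 against 42.8 and 82.8 CPM (1.01 ± 0.29, edgeR adjusted p 0.0401). Pax1, a sclerotome gene required for disc formation, was called with the block in the outer class, with 159 and 147 against 54.1 and 57.4 CPM (-1.46 ± 0.36, edgeR adjusted p 0.0457).

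Of 14 listed noncoding and antisense rows of the Hox clusters 11 were in the gene table and 6 were tested in disc cells. Hotairm1, a noncoding RNA at the head end of HoxA, had more UMIs than any Hox gene, with 52, 174, 689 and 1479 over all cells. Its level in the inner class was 43.2 and 103 CPM in control and 113 and 176 CPM in injured libraries. The log2 fold change was 1.12 ± 0.48 (edgeR adjusted p 0.659) without the block and 1.18 ± 0.27 (edgeR adjusted p 0.00833) with it. Over all cells it was 0.97 ± 0.40, and 0.99 ± 0.25 (edgeR adjusted p 0.0323) with the block, so the direction was opposite to that of most tested Hox genes. It was not called with the block in disc cells (0.89 ± 0.25, edgeR adjusted p 0.0722) or in the outer class (0.46 ± 0.42, edgeR adjusted p 0.606). The block called 6.14% of all genes over all cells and 6.12% in the inner class. Hotair, in HoxC, had 3, 7, 23 and 26 UMIs, and Hottip, beside Hoxa13, had 0, 1, 1 and 2.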

How the data were processed

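Droplet single cell RNA sequencing (10x Chromium, v3 chemistry, read at the 3′ end) was done by the authors on 4 libraries, per the labels. The deposited values are UMI counts per gene and barcode, whole numbers that were not normalized, made with Cell Ranger on mm10, per the labels. The file headers name Cell Ranger 6.0.0 for control round 1 and 4 for the other libraries, per the file headers. The control round 1 matrix lists 444 barcodes of at least 502 UMIs and the others list 1194644 to 6794880, so the libraries were not filtered alike. Strand use in counting is not given in the sources used here. The series text states limits of 250 genes per cell and 5 cells per gene, and both were applied, the second for clustering alone. Clusters came from Leiden partition at resolution 1 (scanpy 1.11.5) and were named from 19 marker lists; rebuilt names can differ from those of the authors, and doublets were not removed. Total UMIs in cells were 1064193 to 10558620 per library. Sums were tested with edgeR 4.0.16 (quasi-likelihood, default filter, TMM, two-sided) and, as an alternative, DESeq2 1.42.0. The edgeR fit alone was tried on simulated data. An SE is the log2 fold change over the root of the F statistic. Exact binomial and Poisson intervals (95%) and limits from a count of 0 (3 UMIs) cover counting error only. Thinned shares drew 1000 UMIs from each cell and left out shallower cells, 8 to 97 of the disc cells of a library. Round 1 barcodes were shared where the injured library held at least 0.3 times the UMIs. Control and injured discs of a round come from the same animals, per the labels, so the replicate numbers pair the samples. The round differences of the 2 groups correlated at r = 0.508 over 11990 genes (0.462 in disc cells). These sums held the shared barcodes of control round 1, so r cannot show the pairing by itself. Values in every library are given for members with at least 50 UMIs, and other list genes are named where a fit called them, otherwise the 2 with the largest change in disc cells. Members, lists and tests were chosen with earlier results of these data known. Values of 1 member are not reported here by name. Gene positions are from GENCODE on mm10.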

Additional observations from a re-analysis of the deposited data

How the results depend on the processing

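No Hox gene was called under any alternative run, by edgeR or DESeq2, with or without the replicate block of rounds, without the shared barcodes, or with a library left out. The outer class clustered again without the shared barcodes tested 0 Hox genes, so no call was possible there. The block changed no call of a Hox gene. Counts of all genes called moved much more. Over all cells 14 genes were called, against 169 with DESeq2, 378 with no filter on low counts, 736 with the replicate block, 0 with at least 500 detected genes per cell, 3 without the shared barcodes and 242 with the block and without them. In disc cells 2 were called, against 121, 303 and 493 with DESeq2, no filter and the replicate block, 0 with at least 500 genes, 0 under 10% mitochondrial UMIs, 0 without nucleus pulposus-like cells and 244 with the block and without shared barcodes. In the inner class 0 were called (816 at an unadjusted edgeR p under 0.05), against 100 with DESeq2, 667 with the replicate block, 14 with at least 500 genes, 15 without shared barcodes, 15 under 10% mitochondrial UMIs and 451 with the block and without shared barcodes. In the outer class 93 were called, against 292 with no filter, 240 with the replicate block, 57 under 10% mitochondrial UMIs, 240 with the block and without shared barcodes and 1 when cells were clustered again without them. The cause of these moves was not tested. Leaving out each library in turn gave 126 to 273, 0 to 130, 0 to 201 and 42 to 183 calls in the 4 cell sets. The alternatives that combine the block with the shared barcodes, cluster again or leave out nucleus pulposus-like cells were chosen after seeing the data.

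With a library left out, the difference in the share of paralogue number 13, whose sign was fixed since the groups did not overlap, was -4.80 to -3.22 points over all cells, -5.70 to -3.86 in disc cells, -4.53 to -2.02 in the inner and -11.4 to -7.78 in the outer class. The share of cells with a Hox UMI, thinned by a random draw of 1000 UMIs per cell, had overlapping groups in the outer class alone. Without the shared barcodes disc cells overlapped too, with 31.2% and 40.5% in control against 35.8% and 28.7% in injured libraries. That run was a new draw, and on the same 517 cells of injured round 1 it gave 35.8% in place of 32.9%. The difference between groups moved from -8.36 to -12.1 points over all cells with at least 500 genes. In disc cells thinned to 2000 UMIs it moved from -4.66 to -11.3 points. In the outer class it was -9.41 points. With a library left out it ran there from -20.5 to 1.67 points, reversed without injured round 2. The part of the draw in these values was not tested. Depth limits members under 50 UMIs, most of which were given as counts.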
